A study of Mus musculus with 12 samples.

Results

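The genes described here are 10 genes that mark oligodendrocyte precursors, the glial progenitors that go on to make myelin: Olig1, Olig2, Sox10, Sox8, Nkx2-2, Pdgfra, Cspg4, Ptprz1, Gpr17 and Bcas1. They were taken by symbol from the gene table of mouse hippocampal cultures, where all 10 were found among 19336 named genes and all 10 were among the 15656 genes with enough counts to be tested. The cultures were prepared from WT mice at about P4 and grown for about 8 d before treatment. They were sequenced as bulk RNA in 4 groups of 3 libraries. In the DAPT+sErbB4 group, cells were given 20 µM DAPT, an inhibitor of γ-secretase, overnight. They were then given 20 nM sErbB4, the soluble recombinant ectodomain of ErbB4, for 4 h. The DAPT group was given the inhibitor and no sErbB4. The sErbB4 group was given the ectodomain and no inhibitor, and the vehicle group was given neither. All 4 groups carried the same genotype. The study set these groups against each other to separate responses to ErbB4 that need γ-secretase cleavage of Nrg1 from those that do not. DAPT acts on every γ-secretase substrate in every cell of the dish, Notch receptors included, so the groups are not specific to Nrg1 or to neurons. The labels call the samples neuronal cultures, and neuron genes such as Tubb3 (370.6 CPM on average, where CPM is a count scaled to the library's total) were present, but so were astrocyte genes such as Gfap (4407 CPM) and the precursor genes themselves.

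Olig1 and Olig2 are basic helix-loop-helix transcription factors, and Olig2 is required to specify the lineage. Sox8 and Sox10 are SoxE group transcription factors of the same lineage, and Nkx2-2 is a homeodomain factor that acts as precursors begin to differentiate. Pdgfra is the receptor for PDGF-A, the mitogen that keeps precursors dividing. Cspg4, or NG2, is a cell surface proteoglycan, and Ptprz1 is a receptor tyrosine phosphatase that astrocytes and radial glia also make. Gpr17, a G protein-coupled receptor, and Bcas1 are high in committed precursors and newly formed oligodendrocytes and mark a later stage than Pdgfra and Cspg4. Notch signaling, which needs γ-secretase to release the receptor's intracellular domain, is known to hold precursors in the undifferentiated state. In bulk samples, fewer cells of a type and less RNA per cell cannot be told apart, and this holds for every value below.

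Olig2 and Olig1 lie close together on chromosome 16, where in the GENCODE annotation of mm10 they span chr16:91225457-91228677 and chr16:91269772-91271933 on the + strand, 41.1 kb apart and with 1 other annotated gene between them. The other members lie apart from each other. Sox10 is at chr15:79154908-79165240 (- strand), Sox8 at chr17:25565892-25570686 (-), Pdgfra at chr5:75152292-75198215 (+), Cspg4 at chr9:56865033-56899870 (+) and Ptprz1 at chr6:22875502-23052916 (+). Nkx2-2 is at chr2:147177546-147194243 (-) and Bcas1 at chr2:170346991-170427845 (-), and the position of Gpr17 is given with its values. Nkx2-2 overlaps the antisense gene Nkx2-2os (0.136 to 0.444 CPM) and 6430503K07Rik (0.410 to 1.51 CPM), and genes on the opposite strand that are not analysed here overlap Olig1, Sox8, Pdgfra and Bcas1. Whether the counting used strand is not stated, so reads of such partners cannot be told apart. Of the members, 6 had an entry in the RefSeq promoter table of GRCm38.p6: Olig2, Sox8, Nkx2-2, Pdgfra, Cspg4 and Ptprz1. Of these 6, 5 fell together under DAPT, and the start regions of Olig2, Pdgfra and Sox8 among them are shown as examples. E-boxes (CANNTG, the site of helix-loop-helix factors) are in capitals. The windows of Cspg4 and Ptprz1, which also fell and are not shown, held no E-box. Stretches end at the last base before the RefSeq or the GENCODE start, whichever comes first, and read 5′ to 3′ on the gene's strand. Those shown cover chr16:91225300-91225456 (+), chr5:75152001-75152250 (+) and chr17:25570687-25570936 (-).
Olig2: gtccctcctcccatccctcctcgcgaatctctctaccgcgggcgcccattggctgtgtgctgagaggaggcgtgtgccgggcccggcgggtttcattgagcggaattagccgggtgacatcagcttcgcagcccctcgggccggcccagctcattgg
Pdgfra: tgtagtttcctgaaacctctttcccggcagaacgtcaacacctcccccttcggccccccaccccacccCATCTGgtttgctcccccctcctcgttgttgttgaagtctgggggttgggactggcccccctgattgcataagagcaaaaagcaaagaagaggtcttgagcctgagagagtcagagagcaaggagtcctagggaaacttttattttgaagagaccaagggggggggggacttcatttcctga
Sox8: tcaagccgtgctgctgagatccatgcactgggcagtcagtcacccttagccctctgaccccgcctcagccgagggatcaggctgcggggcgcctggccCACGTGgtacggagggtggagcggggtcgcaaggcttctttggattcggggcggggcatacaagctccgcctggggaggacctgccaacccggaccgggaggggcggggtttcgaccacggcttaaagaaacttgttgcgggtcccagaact
Over the full windows of 300 bases, 3 of the 6 members (Nkx2-2, Pdgfra and Sox8) held an E-box, as did 72.3% of 32817 promoter windows. The core letters bound by RBPJ, the DNA-binding partner of Notch (TGGGAA on either strand), were in 0 of the 6 windows and in 25.6% of all. The SoxE letters ACAATG were in 1 of the 6, that of Olig2 and downstream of the stretch shown, and in 12.6% of all, while ACAAAG was in 0 of the 6 and 18.7% of all. These are matches of letters in a short window and say nothing about sites elsewhere.

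CPM is the estimated count of a gene in each 1000000 counts of the library's TMM-scaled total of named genes. The low values within each library are spaced by 1 fixed step whatever the gene, as in abundances per transcript length that were scaled back to counts, so levels of different genes are taken here as per length, and only roughly. Libraries totalled 36.5 to 54.4 M estimated counts, with 18.7 to 30.8 M on named genes. The ribosomal precursor transcript Rn45s took 31.4 to 44.6% of the named counts. Within groups, libraries correlated at r = 0.964 to 0.978 across genes, and sErbB4 replicate 1 and vehicle replicate 3 stood apart from the rest on the second principal component. The estimated count behind a member was between 186 (Nkx2-2) and 22528 (Olig1) in a library. A gene was called when edgeR's quasi-likelihood test gave a Benjamini-Hochberg adjusted p under 0.05 over all tested genes and the log2 fold change was beyond 0.32 in either direction, which is the fold threshold below.

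**Figure D1:**
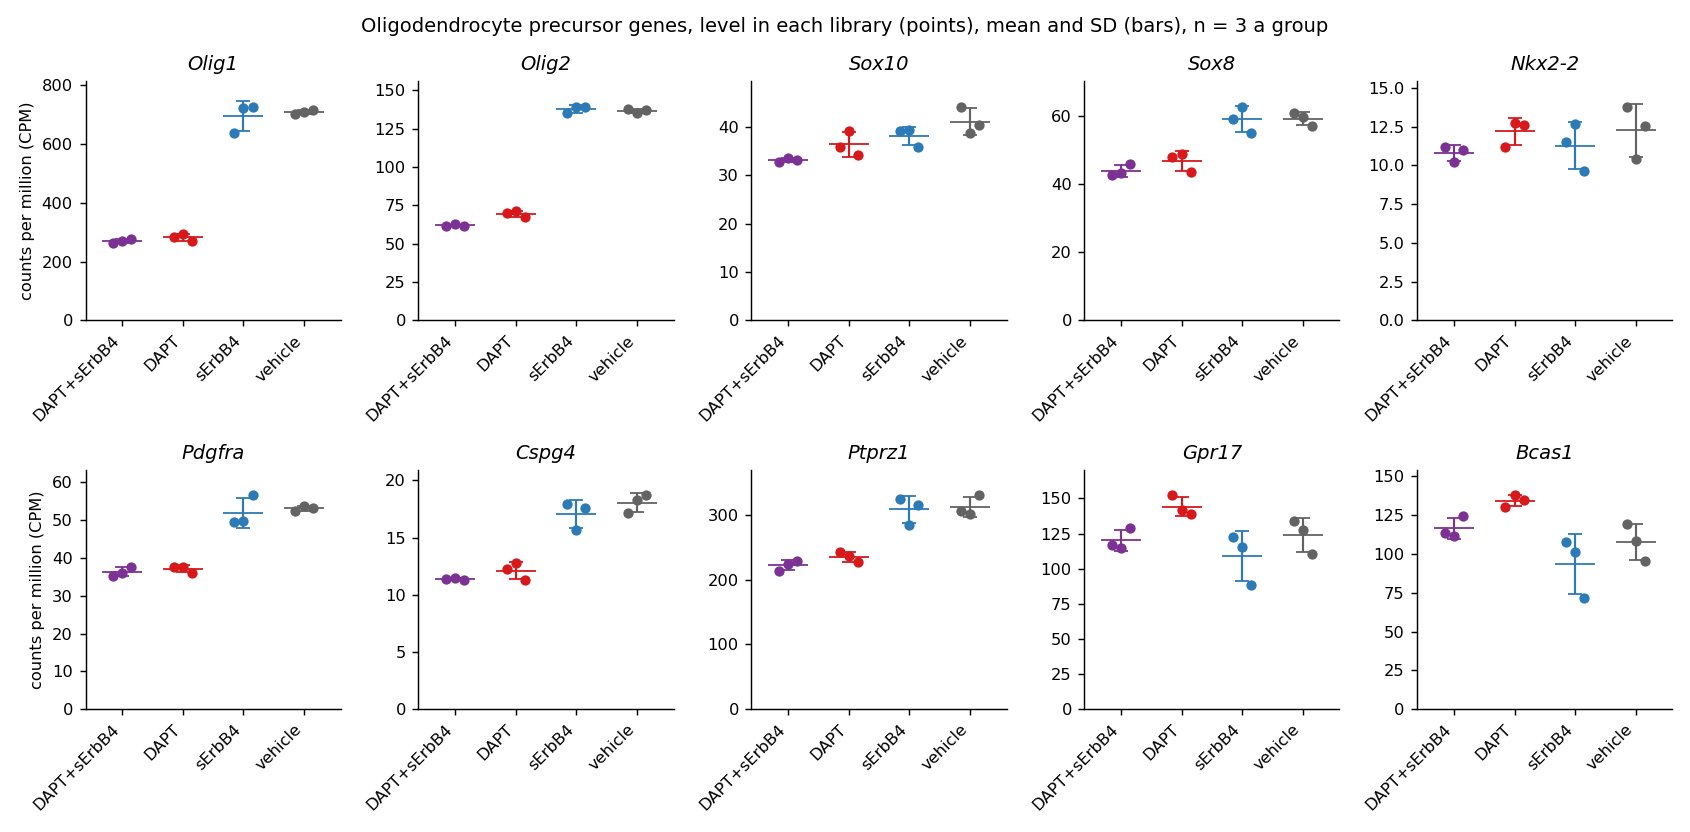
CPM of each of the 10 genes (vertical axes, starting at 0) in the 12 libraries, by group. Points are libraries in order of replicate number, and bars are the group mean and SD (n = 3). Olig1 lies between 263 and 292 CPM in the 6 libraries with DAPT, against 635 to 725 CPM in the 6 without, whereas Nkx2-2 overlaps between the libraries with and without DAPT.

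Most of the precursor genes were lower in cultures given DAPT, while Sox10, Nkx2-2 and the later stage genes Gpr17 and Bcas1 were not called. Against vehicle, 6 of the 10 members were lower and 0 higher in DAPT, where 11.6% of all tested genes were called, 6.92% as lower and 4.66% as higher. The 6 were Olig1, Olig2, Sox8, Pdgfra, Cspg4 and Ptprz1. Against sErbB4, DAPT+sErbB4 had the same 6 members lower and 0 higher, where 11.7% of all genes were called, 7.15% as lower and 4.55% as higher. Over all genes, 8.11% were called in the same direction in these comparisons, which share no library. The median log2 fold change of the members was -0.38 in DAPT against vehicle and -0.45 in DAPT+sErbB4 against sErbB4, beside 0.01 over all tested genes in each. The 3 libraries of each group did not overlap for 8 of the 10 members in each comparison, as was so for 41.1% of all genes in DAPT against vehicle and 38.7% in DAPT+sErbB4 against sErbB4. The 6 DAPT-treated libraries and the 6 others did not overlap for those same 6 members, and 20.4% of all genes showed such a gap.

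Of the transcription factors, Olig1 had the highest level and the largest change. Its level was 263, 271 and 275 CPM in DAPT+sErbB4, 284, 292 and 269 CPM in DAPT, 635, 719 and 725 CPM in sErbB4, and 699, 709 and 713 CPM in vehicle. Every library with DAPT was thus far below every library without it, and sErbB4 replicate 1 was the lowest of those without it. The log2 fold change was -1.33 (SE 0.05, edgeR adjusted p = 1.7e-08) for DAPT against vehicle and -1.36 (SE 0.05, adjusted p = 1.2e-08) for DAPT+sErbB4 against sErbB4. By adjusted p it ranked 14 of 15656 genes in each.

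Olig2 was at 61.8, 62.6 and 61.6 CPM in DAPT+sErbB4, 69.9, 71.4 and 67.4 CPM in DAPT, 135.0, 139 and 139 CPM in sErbB4, and 138, 135 and 137 CPM in vehicle. These are tight groups, with SDs of 0.523, 2.05, 2.50 and 1.19 CPM in the same order. DAPT+sErbB4 was below DAPT in all 3 libraries, whereas sErbB4 and vehicle overlapped. The log2 fold change was -0.98 (SE 0.03, edgeR adjusted p = 9.7e-09) for DAPT against vehicle and -1.15 (SE 0.03, adjusted p = 3.4e-09) for DAPT+sErbB4 against sErbB4.

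Sox8 was at 42.7, 43.2 and 45.8 CPM in DAPT+sErbB4, 47.9, 48.8 and 43.4 CPM in DAPT, 59.2, 62.7 and 55.1 CPM in sErbB4, and 60.9, 59.6 and 57.2 CPM in vehicle. The libraries with and without DAPT were separate. It fell by 0.34 on the log2 scale in DAPT against vehicle (SE 0.06, edgeR adjusted p = 0.0014) and by 0.43 in DAPT+sErbB4 against sErbB4 (SE 0.06). The value for DAPT against vehicle is close to the fold threshold, and was -0.28, inside it, without DAPT replicate 3.

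Sox10, the SoxE factor that drives myelin genes, showed a smaller difference and was called in neither comparison. Its level was 32.8, 33.5 and 33.0 CPM in DAPT+sErbB4, 35.8, 39.1 and 34.2 CPM in DAPT, 39.1, 39.3 and 35.9 CPM in sErbB4, and 44.1, 38.7 and 40.3 CPM in vehicle. DAPT+sErbB4 libraries were the lowest 3 of the 12, and DAPT overlapped vehicle. The log2 fold change was -0.18 (95% interval -0.31 to -0.05, edgeR adjusted p = 0.054) for DAPT against vehicle and -0.20 (-0.34 to -0.07, adjusted p = 0.031, inside the fold threshold) for DAPT+sErbB4 against sErbB4. These intervals do not reach the estimates for Olig1, Olig2, Sox8, Pdgfra, Cspg4 or Ptprz1 in the same comparison. However, the Sox8 intervals (-0.47 to -0.22 and -0.55 to -0.30) overlapped those of Sox10. So did the Ptprz1 interval in DAPT against vehicle (-0.53 to -0.29). Differences between genes were not tested.

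Nkx2-2 and Cspg4 had the lowest levels of the 10, and Nkx2-2 did not separate libraries with DAPT from those without. It was at 11.2, 10.2 and 11.0 CPM in DAPT+sErbB4, 11.2, 12.7 and 12.6 CPM in DAPT, 11.5, 12.7 and 9.66 CPM in sErbB4, and 13.8, 10.4 and 12.5 CPM in vehicle. The log2 fold change was -0.02 (95% interval -0.26 to 0.22) for DAPT against vehicle and -0.07 (-0.31 to 0.17) for DAPT+sErbB4 against sErbB4. Both intervals lie inside the fold threshold.

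Among the surface proteins, the mitogen receptor gene Pdgfra was at 35.2 to 37.7 CPM in the 6 libraries with DAPT and at 49.4 to 56.5 CPM in the 6 without. Its mean was 36.3 ± 1.23 CPM in DAPT+sErbB4, 37.1 ± 0.950 in DAPT, 51.9 ± 4.03 in sErbB4 and 53.1 ± 0.754 in vehicle (SD, n = 3 each). It fell by 0.52 on the log2 scale in DAPT against vehicle and by 0.51 in DAPT+sErbB4 against sErbB4 (SE 0.05 in each). Cspg4 was at 11.4, 11.5 and 11.3 CPM in DAPT+sErbB4, 12.3, 12.8 and 11.3 CPM in DAPT, 17.9, 15.6 and 17.6 CPM in sErbB4, and 17.1, 18.3 and 18.7 CPM in vehicle. Its log2 fold change was -0.58 (SE 0.06) in each comparison, with no overlap. Ptprz1, the most abundant member after Olig1, averaged 223 ± 7.92 CPM in DAPT+sErbB4, 235 ± 7.89 in DAPT, 308 ± 21.1 in sErbB4 and 312 ± 15.6 in vehicle (SD, n = 3 each). It fell by 0.41 in DAPT against vehicle and by 0.47 in DAPT+sErbB4 against sErbB4 on the log2 scale (SE 0.05 in each). The lower levels of Pdgfra, Cspg4 and Ptprz1 under DAPT lay close together: in these comparisons they fell by 24.8 to 32.9%, whereas Olig1 and Olig2 fell by 49.1 to 61.1%.

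Gpr17 and Bcas1, the genes of the committed stage, were not lower under DAPT. Bcas1 was at 113, 111 and 124 CPM in DAPT+sErbB4, 130, 138 and 135 CPM in DAPT, 108, 101 and 71.3 CPM in sErbB4, and 119, 108 and 95.6 CPM in vehicle. Each DAPT group lay above its own comparison group with no overlap, though not by much. The log2 fold change was 0.32 (SE 0.13, 95% interval 0.04 to 0.60, edgeR adjusted p = 0.096) for DAPT against vehicle and 0.32 (SE 0.13, 0.04 to 0.60, adjusted p = 0.095) for DAPT+sErbB4 against sErbB4, so that neither passed. In limma on log2(CPM + 2) with cyclic loess scaling, both passed as higher (0.37 and 0.36), and without sErbB4 replicate 1 the second passed with edgeR (0.43, adjusted p = 0.036).

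Gpr17 lies at chr18:31942997-31949636 on the - strand of mm10, and overlaps Lims2, a gene on the opposite strand whose level was 10.5 to 14.3 CPM over the 12 libraries. Gpr17 was at 117, 115 and 129 CPM in DAPT+sErbB4, 152, 142 and 139 CPM in DAPT, 123, 116 and 88.6 CPM in sErbB4, and 134, 127 and 111 CPM in vehicle. DAPT was above vehicle in all 3 libraries and DAPT+sErbB4 overlapped sErbB4. The log2 fold change was 0.22 (95% interval -0.02 to 0.46, edgeR adjusted p = 0.18) and 0.14 (-0.10 to 0.38), and the gene was called in neither comparison. Gpr17 and Bcas1 followed each other over the 12 libraries (Pearson r = 0.941, and 0.942 after group means were taken out), which is a description of libraries that share treatment and scaling. sErbB4 replicate 3 was the lowest library for both and for Nkx2-2.

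**Figure D2:**
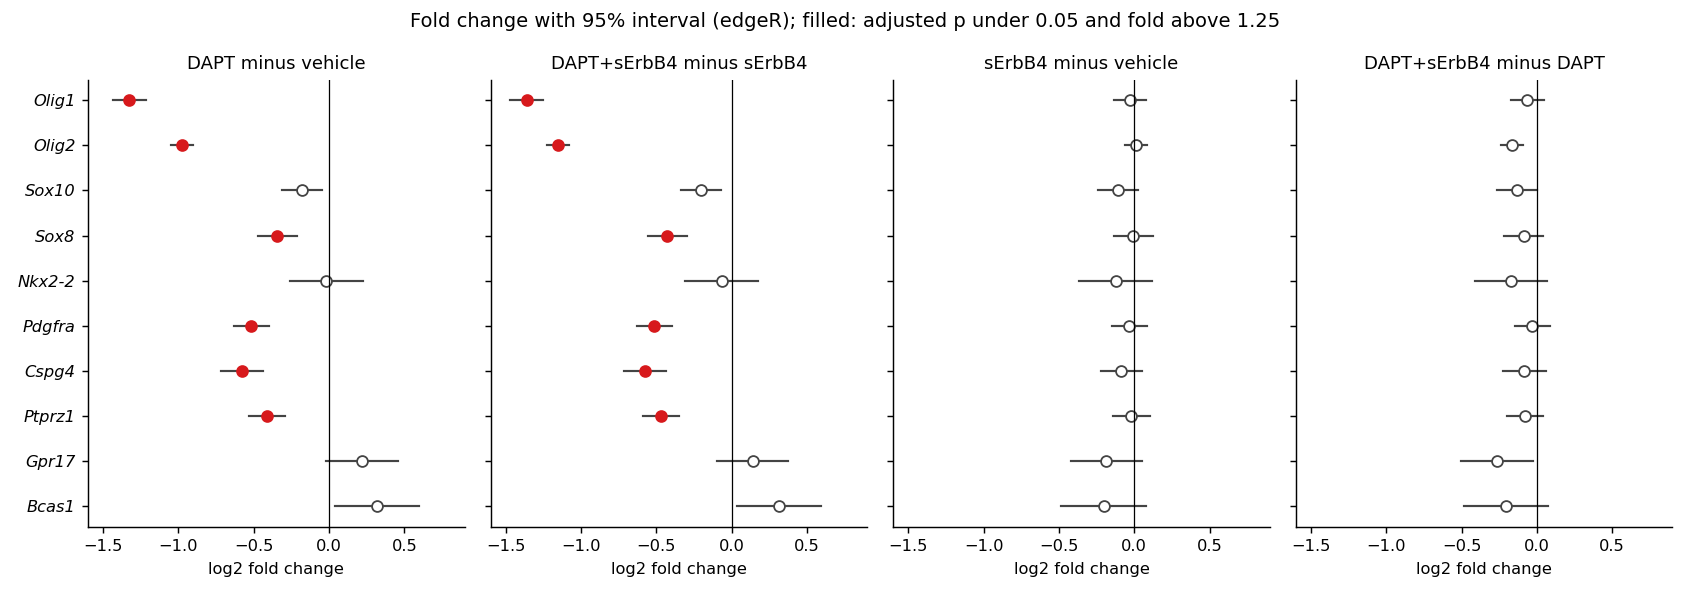
Log2 fold change of each member (horizontal axis) with its 95% interval in 4 comparisons, the group named first over the group named second. Filled points were called. Both comparisons with DAPT have Olig1, Olig2, Sox8, Pdgfra, Cspg4 and Ptprz1 to the left of 0, while in the comparisons of sErbB4 no member was called.

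Ratios of a pair of members within a library restate the levels above in a form that does not depend on scaling between libraries. Bcas1 over Pdgfra was 3.20 ± 0.109 in DAPT+sErbB4, 3.62 ± 0.146 in DAPT, 1.83 ± 0.494 in sErbB4 and 2.03 ± 0.241 in vehicle (SD, n = 3 each). The lowest DAPT-treated library (3.09) was above the highest of the others (2.28). Gpr17 over Pdgfra was 3.31 ± 0.114, 3.89 ± 0.141, 2.13 ± 0.492 and 2.34 ± 0.239 in the same order of groups, also without overlap between libraries with and without DAPT. Gpr17 over Bcas1 had means of 1.03, 1.08, 1.18 and 1.15 in that order. Olig1 over Olig2 was 4.35 ± 0.109 in DAPT+sErbB4, 4.05 ± 0.0490 in DAPT, 5.02 ± 0.278 in sErbB4 and 5.17 ± 0.0791 in vehicle, lower in every library with DAPT. Olig2 over Sox10 was 1.87 ± 0.0121 and 1.92 ± 0.0780 in DAPT+sErbB4 and DAPT, against 3.63 ± 0.227 and 3.34 ± 0.200 in sErbB4 and vehicle. No test was run on these ratios, whose genes were picked with their levels known.

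**Figure D3:**
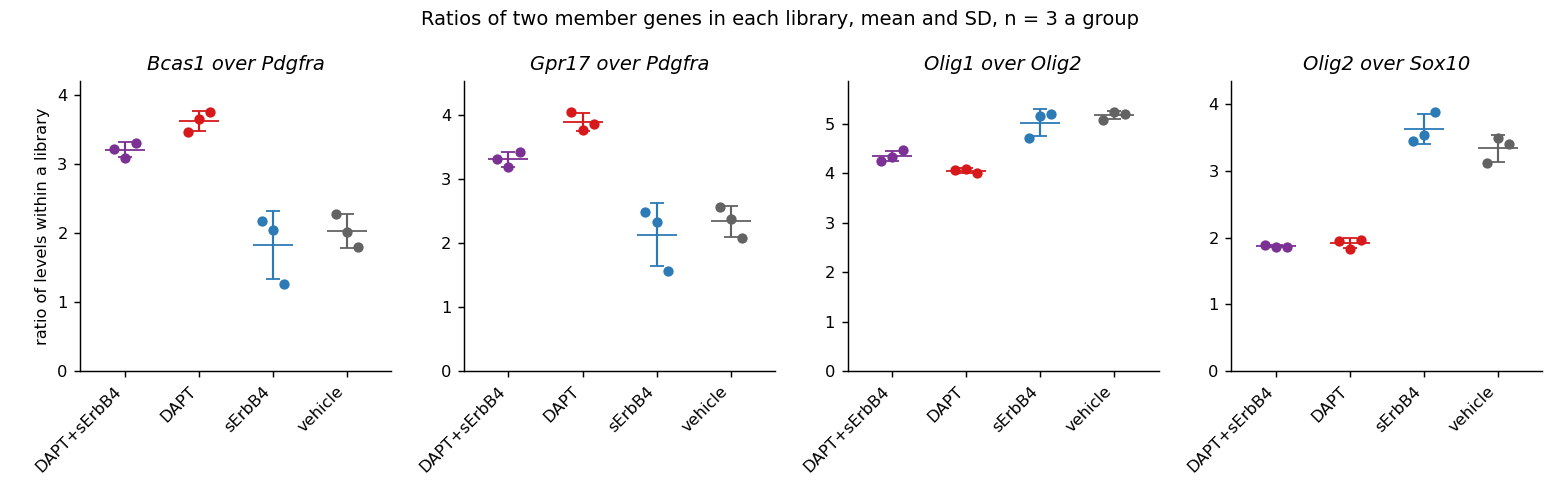
Ratio of the levels of a pair of members within each library (vertical axes, starting at 0), by group. Points are libraries, and bars are mean and SD (n = 3). Bcas1 over Pdgfra and Gpr17 over Pdgfra are higher, and Olig1 over Olig2 and Olig2 over Sox10 lower, in every library with DAPT than in every library without it.

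sErbB4 for 4 h moved none of the 10 past the threshold. Against vehicle, 0 members were called and 0 had an unadjusted p under 0.05 (edgeR), where 0.0319% of all genes, or 5, were called and 7.56% had such a p. DESeq2 and limma also called 0 members. The estimates were between -0.20 (Bcas1, 95% interval -0.48 to 0.08) and 0.01 (Olig2, -0.06 to 0.09), and all 10 members overlapped between sErbB4 and vehicle, where 10.8% of all genes did not. For Olig1 the interval was -0.14 to 0.08, so a change of the size seen with DAPT lies outside it. Changes smaller than these intervals were not detectable with 3 libraries a group.

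With γ-secretase inhibited, DAPT+sErbB4 against DAPT likewise gave 0 called members (edgeR, DESeq2 and limma), where 0% of all genes were called by edgeR, 9 genes by DESeq2 and 0 by limma. All 10 estimates were negative, from -0.26 (Gpr17) to -0.03 (Pdgfra), beside 49.4% of all tested genes. This was not particular to the members. Negative estimates were also found for 17 of 20 other precursor genes, 10 of 10 radial glia genes and 9 of 10 astrocyte genes. Of fibroblast genes 8 of 8 were negative, and of neuron genes 1 of 12. Olig2 and Gpr17 had an unadjusted p under 0.05, as did 9.21% of all genes. For Olig2 the log2 fold change was -0.17 (SE 0.03, edgeR unadjusted p = 0.00046, adjusted p = 0.24), and it was lower in 3 of 3 libraries. Over the alternatives its adjusted p was 0.0068 (DESeq2) to 0.72, and with DESeq2 the missing call rested on the fold threshold alone. The groups did not overlap for 5 members, as was so for 19% of all genes. Whether DAPT acted differently with and without sErbB4 was tested as an interaction, which called 0 members and 0.00639% of all genes. The Olig2 term was -0.18 (SE 0.05, edgeR unadjusted p = 0.0031, adjusted p = 1.0), and 3.61% of all genes had an unadjusted p under 0.05.

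sErbB4 against DAPT shares its DAPT libraries with the comparison of DAPT and vehicle, and is given for its own values. Here 8 of the 10 members were called, 6 higher and 2 lower, where 10.1% of all genes were called, 6.04% as higher and 4.05% as lower. Olig1 (log2 fold change 1.30), Olig2 (0.99), Cspg4 (0.49), Pdgfra (0.48), Ptprz1 (0.39) and Sox8 (0.34) were higher. Bcas1 (-0.52, SE 0.13, edgeR adjusted p = 0.013) and Gpr17 (-0.40, SE 0.11, adjusted p = 0.021) were lower. The Gpr17 call was lost without sErbB4 replicate 3 (-0.27, inside the fold threshold), without DAPT replicate 1 (-0.37, adjusted p = 0.073), or with only the 6 libraries compared (-0.40, adjusted p = 0.061). The Sox8 call was lost without sErbB4 replicate 2 (0.29) or without DAPT replicate 3 (0.28).

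In DAPT+sErbB4, the members ranked by mean CPM as Olig1, Ptprz1, Gpr17, Bcas1, Olig2, Sox8, Pdgfra, Sox10, Cspg4 and Nkx2-2. DAPT gave the same order except that Nkx2-2 and Cspg4 changed places, and there the libraries of that pair overlapped, as did those of Pdgfra and Sox10. In sErbB4 and in vehicle, Olig2 stood above Gpr17 and Bcas1, with the rest of the order as in DAPT+sErbB4. The libraries of Gpr17 and Bcas1 overlapped in DAPT+sErbB4, sErbB4 and vehicle, but Gpr17 was above Bcas1 within every library (ratio 1.03 to 1.24). Those of Sox8 and Pdgfra overlapped in sErbB4, where Pdgfra was the higher only in replicate 3, so that pair has no firm order there. The summed level of the 10 genes was 902 to 958 CPM in DAPT+sErbB4, 974 to 1030 in DAPT, 1502 to 1540 in sErbB4 and 1561 to 1583 in vehicle, and Olig1 made up most of the gap.

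Other genes of oligodendrocyte precursors were lower in part. Of 20 tested, 6 were lower and 0 higher in DAPT against vehicle, and 9 were lower and 0 higher in DAPT+sErbB4 against sErbB4, with medians of -0.18 and -0.26 on the log2 scale. Epn2, an endocytic adaptor, averaged 41.0 ± 2.59 CPM in DAPT+sErbB4, 43.6 ± 2.06 in DAPT, 83.6 ± 8.56 in sErbB4 and 85.3 ± 5.21 in vehicle (SD, n = 3 each), and fell by 0.97 and 1.03 on the log2 scale in these comparisons. Cspg5, a proteoglycan also known as neuroglycan C, fell by 0.67 and 0.72, the xylosyltransferase gene Xylt1 by 0.54 and 0.66, and the metalloprotease gene Mmp15 by 0.60 and 0.60. Genes of committed and newly formed oligodendrocytes gave 1 higher and 1 lower of 10 in DAPT against vehicle, and 2 higher and 0 lower of 10 in DAPT+sErbB4 against sErbB4. The ligand gene Bmp4 was at 14.1 to 14.9 CPM in DAPT+sErbB4, 15.4 to 16.5 in DAPT, 8.13 to 12.6 in sErbB4 and 10.6 to 12.6 in vehicle, and rose by 0.49 in DAPT+sErbB4 against sErbB4 (edgeR adjusted p = 0.011). Enpp6, a choline phosphodiesterase gene of new oligodendrocytes, was at 12.4 to 14.4 CPM in DAPT+sErbB4 and 8.61 to 11.2 CPM in sErbB4 (log2 fold change 0.38, adjusted p = 0.033). The Enpp6 call was lost when sErbB4 replicate 1 or 3, or DAPT+sErbB4 replicate 2 or 3, was left out (0.28 to 0.42). In DAPT against vehicle, the Bmp4 value was 0.40 (edgeR adjusted p = 0.032). Its call was lost on adjusted p when any single DAPT or vehicle library was left out (0.323 to 0.448, still beyond the fold threshold). Of 13 myelin genes tested, 0 were higher and 1 lower in DAPT against vehicle, and 1 higher and 0 lower in DAPT+sErbB4 against sErbB4, each at a low level (Mag and Aspa, named after their values were seen). The Aspa call did not stand in DESeq2 or limma, and Mbp (66.4 CPM on average) and Cnp were not called.

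**Figure D4:**
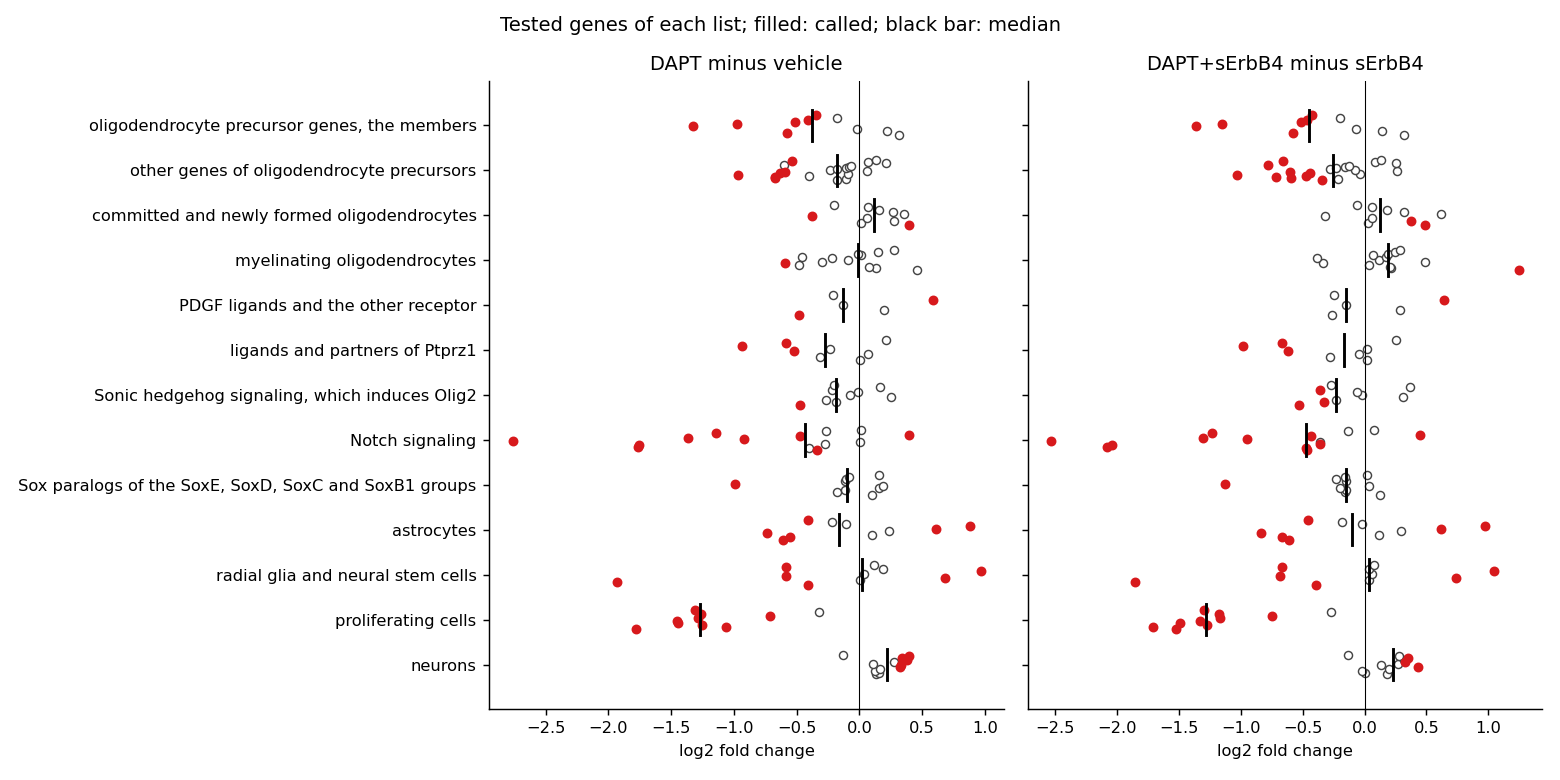
Log2 fold change (horizontal axes) of the tested genes of each list, a point a gene, for DAPT against vehicle and DAPT+sErbB4 against sErbB4. Filled points were called, and black bars are list medians. The median of the members was -0.38 and -0.45, between those of proliferation genes and those of newly formed oligodendrocyte genes. Medians of Notch pathway genes were close to it (-0.44 and -0.47).

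Genes of signaling around the members, and paralogs of members, were read the same way, whether or not they act on a member. Of the PDGF ligands and Pdgfrb, 1 of 5 was lower and 1 higher in DAPT against vehicle, and 0 lower and 1 higher in DAPT+sErbB4 against sErbB4. Pdgfd, a ligand of Pdgfrb, averaged 11.8 ± 0.456 CPM in DAPT+sErbB4 and 12.95 ± 0.402 in DAPT, against 7.54 ± 0.814 in sErbB4 and 8.65 ± 0.149 in vehicle (SD, n = 3 each), and rose by 0.58 and 0.64 on the log2 scale. Of 8 ligands and partners of Ptprz1, 3 were lower and 0 higher in each comparison. Ptn, or pleiotrophin, a ligand of Ptprz1, averaged 353 ± 5.48 CPM in DAPT+sErbB4, 366 ± 0.955 in DAPT, 698 ± 14.3 in sErbB4 and 699.7 ± 27.5 in vehicle, a fall by 0.94 in DAPT against vehicle and by 0.98 in DAPT+sErbB4 against sErbB4. The matrix genes Tnc and Ncan were the other 2. Of 9 genes of Sonic hedgehog signaling, which induces Olig2 in the embryo, 1 was lower in DAPT against vehicle (Boc, a co-receptor, -0.47) and 3 in DAPT+sErbB4 against sErbB4 (Boc -0.53, the receptor Ptch1 -0.36 and the co-receptor Cdon -0.33), with 0 higher. The Cdon call was lost without sErbB4 replicate 1 or 3 or DAPT+sErbB4 replicate 1 (-0.32 to -0.30). Of 14 Notch pathway genes, 8 were lower and 1 higher in DAPT against vehicle, and 10 lower and 1 higher in DAPT+sErbB4 against sErbB4. The higher gene, Notch2 (0.39 and 0.45), lost its call without vehicle replicate 1 or 2 or any DAPT library in DAPT against vehicle (0.36 to 0.43), and without replicate 2 or 3 of sErbB4 or DAPT+sErbB4, or with only the 6 libraries, in DAPT+sErbB4 against sErbB4 (0.32 to 0.45). The Notch effector Hes1 averaged 1.52 ± 0.153 CPM in DAPT+sErbB4, 1.90 ± 0.103 in DAPT, 6.41 ± 0.966 in sErbB4 and 6.48 ± 0.505 in vehicle (SD, n = 3 each), and fell by 1.76 and 2.08 on the log2 scale. Hes5, a second effector, fell by 1.76 and 2.04, and Notch1 by 0.47 and 0.43, the last of which was -0.28, inside the fold threshold, without sErbB4 replicate 1. Of 10 other Sox genes, Sox3 was the single one called, and as lower (-0.99 and -1.13). The 9 others included Sox9, the third SoxE gene (0.15 and 0.02).

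Markers of other cells moved with the same comparisons. Of 10 proliferation genes, 9 were lower and 0 higher in each comparison, and their summed level was 92.4 to 95.8 CPM in DAPT+sErbB4, 90.9 to 95.01 in DAPT, 142 to 158 in sErbB4 and 151 to 166 in vehicle. Of 10 astrocyte genes, 4 were lower and 2 higher in each comparison, and of 10 radial glia genes also 4 and 2. The summed astrocyte level was 6597 to 6870 CPM in DAPT+sErbB4, 6965 to 7388 in DAPT, 6036 to 6314 in sErbB4 and 6324 to 7089 in vehicle. The radial glia sum was 2341 to 2432, 2528 to 2658, 4107 to 4527 and 4387 to 4820 CPM in that order. Most of this gap lay in Fabp7, a fatty acid binding protein gene, which averaged 748, 749, 2707 and 2860 CPM and fell by 1.93 and 1.86. The median log2 fold change of the radial glia list was 0.02 and 0.04, and its higher genes were Prom1 (0.97 and 1.05) and Id4 (0.68 and 0.74). Of 12 neuron genes, 0 were lower and 5 higher in DAPT against vehicle (2 higher without vehicle replicate 1), and 0 lower and 3 higher in DAPT+sErbB4 against sErbB4, with sums of 1882 to 1983, 1716 to 1803, 1598 to 1726 and 1461 to 1565 CPM in that order. Of 9 microglia genes, 1 was lower in DAPT against vehicle and 2 in DAPT+sErbB4 against sErbB4 (1 without sErbB4 replicate 3 or DAPT+sErbB4 replicate 3), with 0 higher (sums between 135 and 162 CPM over the 12 libraries). Of 6 tested mural genes, 3 were lower in each and 0 higher (26.7 to 27.3, 29.2 to 32.0, 43.9 to 50.8 and 52.4 to 54.7 CPM). Of 8 fibroblast genes, 5 were lower (3 in DAPT against vehicle without DAPT replicate 3) and 2 higher in each (140 to 144, 153 to 167, 177 to 194 and 191 to 204 CPM), and of 5 tested endothelial genes 0 were called (5.56 to 7.44 CPM over all libraries). No list had a gene at 0 in all 12 libraries. Ptprz1 is shared with astrocytes and radial glia, and the other members need not be confined to precursors either. The part of any of these cells, mural cells and fibroblasts included, in the values of Pdgfra, Cspg4 or any other member was not tested.

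Among 10878 genes with at least 5 CPM on average, those most like the mean pattern of Olig1, Olig2 and Sox10 over the 12 libraries included Prex1 (Pearson r = 0.992), Arhgef19, Jun, Htra1, Bcan, Col4a1, Sall2, Samd4b and Sox3 (r = 0.987). These correlations largely reflect the gap between libraries with and without DAPT. Against the same pattern, Sox8 had r = 0.974, Cspg4 0.957, Ptprz1 0.944 and Pdgfra 0.944, whereas Nkx2-2 had 0.29, Gpr17 -0.29 and Bcas1 -0.50.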

How the data were processed

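RNA from 12 mouse hippocampal cultures (3 libraries for each of DAPT+sErbB4, DAPT, sErbB4 and vehicle) was sequenced by the authors after poly(A) selection. Per the labels and the study's methods, processing used Trimmomatic for trimming, HISAT2 for alignment (mm10), StringTie for transcript assembly and IsoformSwitchAnalyzeR for gene values. Quality was inspected with FastQC and MultiQC, and limma is also named per the labels. Versions are not given in the sources used here. The deposited file holds estimated counts per locus, not normalized between libraries. No value above 0 is whole. In each library, those under 5 are spaced by 1 step (tolerance 0.01 of that step). The sources give the DAPT treatment as overnight or as 24 h, and differ slightly on the age of the mice and the days in culture. The study names sErbB4 as a mouse ErbB4 Fc chimera among its reagents, and as human ErbB4 in a note on the treatments.

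Loci with no gene name (1976 of 21312, 43.4 to 51.8% of counts) were left out. Estimated counts were rounded to whole numbers, filtered with filterByExpr and fitted with all 12 libraries by edgeR 4.0.16 (R 4.3.3; TMM scaling, quasi-likelihood test, 8 residual degrees of freedom). Calls needed a Benjamini-Hochberg adjusted p under 0.05 over 15656 genes and a log2 fold change beyond 0.32, the study's fold threshold. CPM used TMM-scaled totals. DESeq2 1.42.0, limma 3.58.1 on log2(CPM + 2), other scalings and filters, a replicate block and leaving out libraries were the alternatives. The code of the fit was run on simulated whole counts drawn with edgeR's own estimates of the spread. That run checks the code and cannot show how well the fit suits the deposited values, which are not whole. Groups came from the sample titles. The study describes the replicates as separate platings, so p-values measure the spread between platings. Same-numbered DAPT and vehicle libraries deviated together from their group means (r = 0.120 to 0.332 in 3 pairs), which was the basis for taking them as pairs. In no other comparison were all 3 pairs over 0.1 (r = -0.669 to 0.599 over all 18 pairs). Libraries with different numbers also reached r = 0.551 (vehicle replicate 3 and sErbB4 replicate 1). The pairing is thus inferred from these values, and the main fit did not use it. The members and all gene lists were chosen with earlier results of these data known. All members are named. Of the other lists, genes named with full values were up to 4 per list with the largest change in DAPT+sErbB4 against sErbB4 among called genes of at least 5 CPM, with Hes1, Hes5 and Notch1, and other genes serve only as examples of a list. The likeness measure was Pearson r with the mean standardized level of Olig1, Olig2 and Sox10. Of the genes this measure names, 1 is not reported here. Promoter sequences and E-box, RBPJ and SoxE letters came from the RefSeq table of GRCm38.p6, with both strands searched, and gene positions from GENCODE M21.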

Additional observations from a re-analysis of the deposited data

How the results depend on the processing

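In DAPT against vehicle, the number of members called in either direction was 6 under each alternative that kept all libraries or left out both that stand apart, with different members under limma, and 5 or 6 when 1 library was left out. In DAPT+sErbB4 against sErbB4 there were 6 or 7, and in sErbB4 against DAPT (8) there were 6 to 8. In sErbB4 against vehicle, DAPT+sErbB4 against DAPT and the interaction, 0 members were called under every alternative run. With limma, Sox8 in DAPT against vehicle (-0.30) was no longer past the fold threshold while Bcas1 (0.37) was, and Sox8 (0.30) and Ptprz1 (0.32) lost their call in sErbB4 against DAPT. With both libraries that stand apart left out, Bcas1 passed as higher in DAPT+sErbB4 against sErbB4 (0.43). Over all genes, counts of calls that moved by over 1.5 times were in small lists. sErbB4 against vehicle gave 5 genes, 18 with DESeq2, 2 with the replicate block, 0 with only the 6 libraries compared and 1 to 5 with a library left out. DAPT+sErbB4 against DAPT gave 0, 9 with DESeq2, 2 with only the 6 libraries compared and 0 to 2 with a library left out, and the interaction gave 1, 4 with DESeq2 and 1 to 3 with a library left out. In DAPT against vehicle, where same-numbered libraries were taken as pairs, the replicate block left the same 6 members called. It moved no count of genes called there by over 1.5 times. In DAPT+sErbB4 against sErbB4, where the numbers were not taken as pairs, it left 6 members called. Estimates near 0 changed sign. Nkx2-2 was -0.11 to 0.079 in DAPT against vehicle with a library left out and 0.0032 with unnamed loci kept, and -0.16 to 0.030 in DAPT+sErbB4 against sErbB4 with a library left out. In sErbB4 against vehicle with a library left out, Olig1 was -0.062 to 0.031, Sox8 -0.053 to 0.041, Pdgfra -0.099 to 0.00085 and Ptprz1 -0.059 to 0.035. With both libraries that stand apart left out, Olig1 was 0.037 and Pdgfra 0.0021, and Sox8 was 0.00074 with only the 6 libraries compared, 0.0040 with unnamed loci kept and 0.00065 without Rn45s. The causes were not tested.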
